A study of Mus musculus with 2 samples.

Results

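Cluster 54 of the deposited cell annotation is a small group of tumour monocytes. Its members are the cells that the authors' table names monocytes of cluster 54 and that carry at least 1000 mouse unique molecular identifiers (UMIs, one per captured RNA molecule) in the count matrix of the library. The rule found 70 cells of 8767 annotated cells. The rule itself used no expression value. The sources used here do not say how the clusters were made, and they are treated below as made from the same transcriptomes. One member was left out because its hashtag belonged to another treatment, and 1 because its barcode was listed a second time, as an NK cell. The remaining 68 cells were compared with 2418 cells of 14 other monocyte clusters.

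MC38 colon carcinoma cells had been placed under the skin of mice with human Fc gamma receptors, and the CD45+ cells of the tumours were sorted and read in 1 pooled 10x Genomics 3' library. Tumour-bearing mice received 2 intraperitoneal injections, 3 days apart, of 100 µg of a human IgG1 antibody against mouse GITR, or PBS as control; the control is called Untreated here, as in the cell table. The antibody came as N297A, an agonist called Fc-null in the cell table, with a substitution known to remove the Fc glycan and most Fc gamma receptor binding, as GA-aFuc, called agonist and Fc enhanced there, or as GITR/Syn GA-aFuc, called non-agonist and Fc enhanced. Cells were taken 4 days after treatment. All groups therefore share the tumour line and the human receptors, and the sources used here do not give the strain, sex and age of the mice. Mice were told apart by hashtag antibodies, and each of the 6 hashtags was taken as 1 mouse. Cluster 54 held 15 and 12 cells in the Untreated mice, 15 and 9 in the N297A mice, 7 in the GA-aFuc mouse and 10 in the GITR/Syn GA-aFuc mouse. The design text gives 3 mice per treatment, and the other mice were not analysed here. A treatment with 1 mouse has no replicate of its own.

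Classical monocytes leave the bone marrow through the receptor CCR2, circulate with high Ly6C, and enter tumours, where many turn into macrophages or antigen-presenting cells and begin to express MHC class II. A further blood subset, the non-classical monocyte, patrols the vessel wall and depends on the transcription factor NR4A1. Interferons switch on antiviral genes, MHC class I and, through the coactivator CIITA, MHC class II in these cells.

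The 68 cells held 556936 mouse UMIs, with a median of 7938 per cell against 9390 in the other monocytes. Levels below are UMIs per 1000000 mouse UMIs (CPM) in the summed cells of a mouse, and differences are log2 values with their standard errors from a fit paired by mouse. Because a cluster compared with the cells it was split from differs by construction, such differences describe the cells and carry no p-value. The fit's TMM scaling set the median of all 10354 genes at -0.22, and scaling by library totals set it at -0.05. Medians of gene lists are to be read against the first value.

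Both markers of the cells' name were present. Ly6c2, which encodes the Ly6C antigen, had a UMI in all 68 cells. Its level ran from 1832 over a median of 2564 to 3355 CPM in cluster 54 and from 1696 over 2211 to 2872 CPM in the other monocytes, so the groups overlapped. The fitted difference was 0.02 ± 0.09, with 4 of 6 mice higher in cluster 54. The gene is nearly identical to Ly6c1, and the sources used here do not say how reads of the pair were assigned. Ccr2 had a UMI in 63 cells. It ran from 539.7 over 713.2 to 785.3 CPM in cluster 54, above the other monocytes' 290.2 to 513.3 CPM in every mouse, with a difference of 0.52 ± 0.12. Among the 15 monocyte clusters cluster 54 ranked 6th for Ly6c2 and 2nd for Ccr2, at 683 ± 101 CPM (SD, n = 6 mice), between cluster 37 at 768 ± 211 and cluster 8 at 661 ± 177; those neighbours lay within 1 SD of it. Both markers are shared with other monocyte clusters and do not set these cells apart.

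Other genes of the classical monocyte list did set them apart. Of 12 listed genes, all tested, 7 were higher by at least 2-fold in every mouse and none lower, with a median of 2.25. Over all genes 165 of 10354 (1.59%) met that rule for higher and 443 (4.28%) for lower, a split of 27.1% higher that became 37.3% (210 and 353 genes) with library totals. Hp, the haemoglobin scavenger haptoglobin, ran from 704.7 over 956.5 to 1378 CPM in cluster 54 and from 45.2 over 61.6 to 88.1 CPM in the other monocytes. The ranges lay far apart, a difference of 3.79 ± 0.14, and 67 of 68 cells held a UMI of it. F13a1, the transglutaminase coagulation factor XIII A, ran from 668.1 to 1082 CPM against 61.3 to 109.4 CPM, a difference of 3.34 ± 0.14.

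Vcan, the matrix proteoglycan versican, stood at 283 ± 141 CPM (SD, n = 6 mice) against 36.6 ± 2.85, a difference of 2.71 ± 0.20. For the chitinase-like protein Chil3 the difference was 2.68 ± 0.10, for the Ly6 family gene Ly6a2 3.23 ± 0.16 and for fibronectin, Fn1, 1.82 ± 0.12. Plac8 was higher in every mouse too but by less than 2-fold (0.71 ± 0.08), and Ms4a4c and Clec4e overlapped between the groups. Each of Hp, F13a1, Chil3, Vcan and Fn1 was highest in cluster 54 of the 15 clusters. For Vcan cluster 27, at 248 ± 80 CPM, lay within 1 SD of cluster 54, and for Chil3 cluster 27, at 1368 ± 452, also did.

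**Figure D1:**
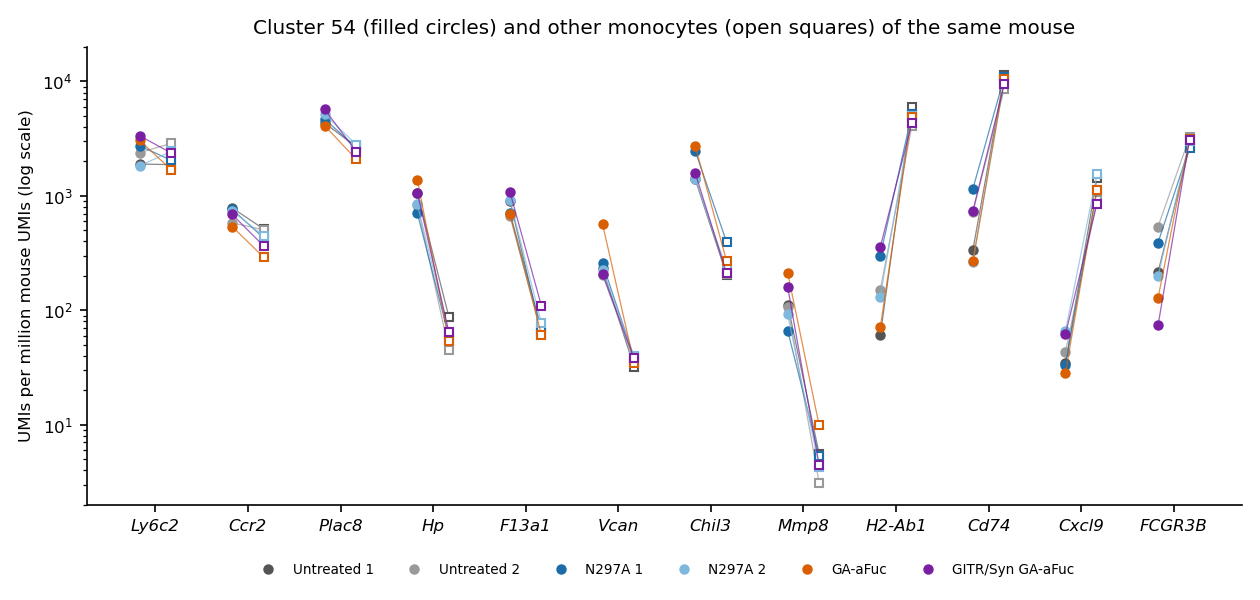
CPM (log scale) of 12 genes in cluster 54 (filled circles) and in the other monocytes (open squares) of the same mouse, joined by a line, for 6 mice. Ly6c2 overlaps, Hp, F13a1, Vcan, Chil3 and Mmp8 are higher in cluster 54 in all 6 mice, and H2-Ab1, Cd74, Cxcl9 and FCGR3B are lower in all 6.

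Genome-wide, the largest difference upwards was that of Mmp8, the neutrophil collagenase, at 4.32 ± 0.33. It ran from 66.3 over 110.0 to 213.0 CPM in cluster 54 and from 3.1 over 4.9 to 9.9 CPM in the other monocytes, with a UMI in 34 cells. Markers of neutrophils were low but not absent. Summed per cell, they had a median of 96.2 CPM in cluster 54 and 0 CPM in the other monocytes. The 10 neutrophil markers together held 60.4 to 111 CPM in cluster 54 and 53.8 to 82.4 CPM in the other monocytes, and 7 of them, out of S100a8, S100a9, Cxcr2, Retnlg, Csf3r, Mmp9, G0s2, Ly6g, Camp and Ltf, had no UMI. Stxbp6 followed at 3.80 ± 0.22 and Pi16 at 3.71 ± 0.43, on 31 UMIs. Plcb1, a phospholipase C that signals below G-protein-coupled receptors, ran from 1094 to 1861 CPM against 86.1 to 158.9 CPM (3.23 ± 0.12), and Rasgrp2, an activator of Rap1 in integrin signalling, differed by 3.08 ± 0.27. Ifitm6 had a UMI in 67 cells and differed by 3.00 ± 0.15. Ccdc88c, Pdlim1, Abcd2, Hpgd (which inactivates prostaglandins) and the non-coding Gm15987 were also among the 15 largest, at 2.95 to 3.67.

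Outside the classical list, single members of other lists were also higher in every mouse. Gsr, glutathione reductase, ran from 377.2 to 725.1 CPM against 69.3 to 149.4 CPM (2.28 ± 0.15), as 1 of 14 tested genes of the oxidative stress list. Ndufa4, a respiratory chain subunit, differed by 1.32 ± 0.15 among 17 oxidative phosphorylation genes with a median of 0.08. Bcl3, an atypical nuclear IkB protein, differed by 1.26 ± 0.22, while 4 other genes of the NF-kB feedback list were lower.

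MHC class II genes were lower in cluster 54. Of its 10 genes, all tested, 8 were lower by at least 2-fold in every mouse and none higher, with a median of -4.42. H2-Ab1, the class II A beta chain, ran from 60.4 over 141.3 to 356.4 CPM in cluster 54 and from 4048 over 4960 to 5935 CPM in the other monocytes, a difference of -4.95 ± 0.37. H2-Eb1, the E beta chain, differed by -5.55 ± 0.14 and H2-Aa, the A alpha chain, by -4.72 ± 0.13. Cd74, the invariant chain that guides class II to the endosome, ran from 263.7 over 529.3 to 1152 CPM against 8664 over 10393 to 11373 CPM (-4.34 ± 0.38). Ciita, that coactivator, had 2 UMIs in all of cluster 54 and at most 14.2 CPM in a mouse, against 56.0 to 108.8 CPM. H2-DMa and H2-DMb1, which load peptide, differed by -1.62 ± 0.15 and -2.92 ± 0.18. The protease Ctss, which trims the invariant chain, differed by -1.45 ± 0.09 and made up 58.4% of what was left of the list's UMIs in cluster 54. Without Ctss the other 9 genes summed to 1308 ± 674 CPM in cluster 54, to 24205 ± 2824 in the other monocytes and to 1090 ± 126 CPM in CD8 T cells of the same mice (SD, n = 6 mice each), cells that should lack them.

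The promoters of class II genes share a Y box, an inverted CCAAT element, and the RefSeq promoter table (mouse build GRCm38.p6; the count files use GRCm39) held 7 of the 10 listed genes. The last 90 bases before the start of H2-Aa (chr17:34287824-34287913, minus strand) and of H2-Eb1 (chr17:34305777-34305866, plus strand) are shown 5′ to 3′ because both genes were among those furthest below the other monocytes. Capitals mark the letters CTGATTGG, searched on both strands.
H2-Aa: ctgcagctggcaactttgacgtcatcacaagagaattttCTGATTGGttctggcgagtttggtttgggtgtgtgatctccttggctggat
H2-Eb1: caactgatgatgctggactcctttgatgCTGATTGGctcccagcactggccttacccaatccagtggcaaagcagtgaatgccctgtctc
The letters also stood in the same window of H2-Oa, hence in 3 of the 7 genes, and in 756 of 32851 promoters of the table (2.30%). These matches are a description of the sequence and were not tested as sites.

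The low class II level was shared by nearly all the cells. The list's sum per cell had a median of 2614 CPM in cluster 54 and 26379 CPM in the other monocytes, and 62 of 68 cells lay at or under the 10th percentile of the other monocytes (4145 CPM). One cell reached 21650 CPM, and it was the only cell of cluster 54 (1 of 68, 1.47%) whose class II sum exceeded its classical monocyte sum, against 31.6% of cluster 42, 10.2% of cluster 27 and 82.3% of the other 12 clusters. When each cell was thinned to 2000 UMIs, 19.1% of cluster 54 cells (95% exact interval 10.6 to 30.5%) held a UMI of H2-Ab1, against 80.9% of other monocytes and 22.3% of CD8 T cells (58.2% of CD8 T cells before thinning, 57.4% of cluster 54). The share of cluster 54 was not above that of the CD8 T cells, so no expression of H2-Ab1 is read from it. The same thinning left 82.4% of cluster 54 cells with a UMI of Hp, 9.58% of other monocytes and 0.221% of CD8 T cells (98.5%, 19.6% and 0.662% before thinning). The median depths were 7938, 9422 and 8158 UMIs, and 18 shallower cells of the other monocytes were left out. These intervals cover counting error only.

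**Figure D2:**
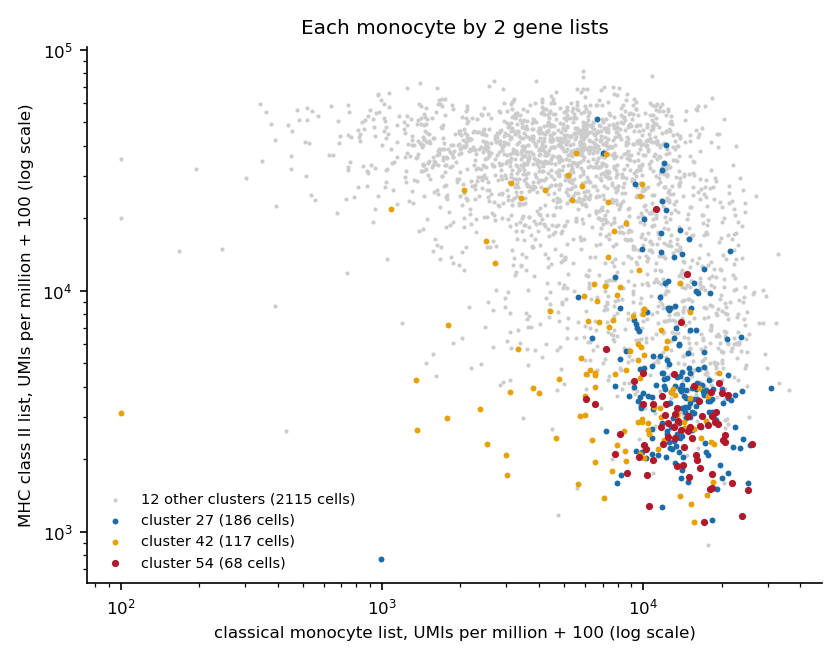
Each point is a monocyte, placed by its summed classical monocyte list (x axis) and MHC class II list (y axis), both as CPM plus 100 on log scales. Cluster 54 sits at the right and low, with 1 cell at 21650 CPM of class II.

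Macrophage markers were low in the same cells. Of 11 listed genes 9 were tested, and 8 of them were lower in every mouse, with a median of -3.57. C1qa, C1qb and C1qc, the complement C1q chains that mark tumour macrophages, differed by -4.27 ± 0.14, -4.34 ± 0.14 and -4.73 ± 0.18. Their sum in cluster 54, 232 to 380 CPM, was 2.05 to 3.36% of their level in barcodes of 10 to 100 UMIs, which hold free RNA. Apoe, the lipid carrier, ran from 356.4 over 727.2 to 1409 CPM against 4548 to 6653 CPM (-3.02 ± 0.33). Mertk, a receptor for dying cells, had 1 UMI.

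Genes of the activated tumour monocyte followed the same direction. Nos2, inducible nitric oxide synthase, had no UMI in 68 cells, where a count of 0 allows up to 5.39 CPM, so it was at least 13.9-fold lower than the 74.7 CPM of the other monocytes. Arg1, the arginase that competes for the same substrate, was lower by 5.57 ± 0.33 on the log2 scale, and 4 of its 5 UMIs came from 1 cell. Of 19 tested inflammatory cytokines and chemokines 9 were lower and none higher, with a median of -2.14. Ccl5, a chemokine for T cells, ran from 8.6 to 16.6 CPM against 620.4 to 1220 CPM (-6.28 ± 0.25). Il1b, the cytokine interleukin 1 beta, ran from 157.5 over 438.6 to 921.7 CPM against 2245 to 2590 CPM (-2.61 ± 0.21), and the chemokine Cxcl16 differed by -5.34 ± 0.25. Among the other genes of the 15 furthest below, Mmp14, a membrane-bound matrix protease, had 1 UMI (-6.74 ± 0.54), and Ifitm1, Dab2, Sdc4, Gpr171, Rnf180 and Tmem86a had 1 to 4 UMIs each, so the size of these differences rests on few molecules. The checkpoint ligand Cd274, PD-L1, ran from 8.3 over 53.6 to 86.0 CPM against 272.0 to 525.4 CPM (-3.16 ± 0.23).

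Interferon-regulated genes were lower in part. In the type I list 14 of 27 tested genes were lower in every mouse and none higher, with a median of -1.01. Ifit2 and Rsad2, both antiviral effectors, differed by -3.76 ± 0.29 and -2.67 ± 0.17. In the list of GTPases and chemokines induced by interferon gamma 7 of 16 were lower. Cxcl9, a ligand of CXCR3 on T cells, ran from 28.4 over 38.8 to 65.9 CPM against 853.0 over 1128 to 1539 CPM (-4.92 ± 0.19), and Gbp4 differed by -3.51 ± 0.41. MHC class I showed smaller differences, 4 of 11 genes with a median of -0.69; H2-K1, a class I heavy chain, differed by -1.51 ± 0.10 and B2m, the shared light chain, by -1.09 ± 0.08.

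Metabolic and lysosomal lists were also lower. Of 19 tested hypoxia and glycolysis genes 11 were lower and none higher (median -1.38), among them Bnip3, a mitophagy receptor, by -3.44 ± 0.41, and the vessel growth factor Vegfa by -2.28 ± 0.27. Of 14 lysosomal genes 8 were lower (median -1.08), with Lgmn, legumain, at -2.71 ± 0.14. Fth1, the ferritin heavy chain that stores iron, ran from 3409 to 4860 CPM against 13985 to 21561 CPM (-2.14 ± 0.07). Ly6a, the antigen Sca-1 that interferons induce, ran from 24.6 to 118.5 CPM against 1840 to 2265 CPM (-5.21 ± 0.16). Cell cycle genes were at low levels in both groups, and none of 16 S phase and 11 mitotic genes tested met the rule.

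**Figure D3:**
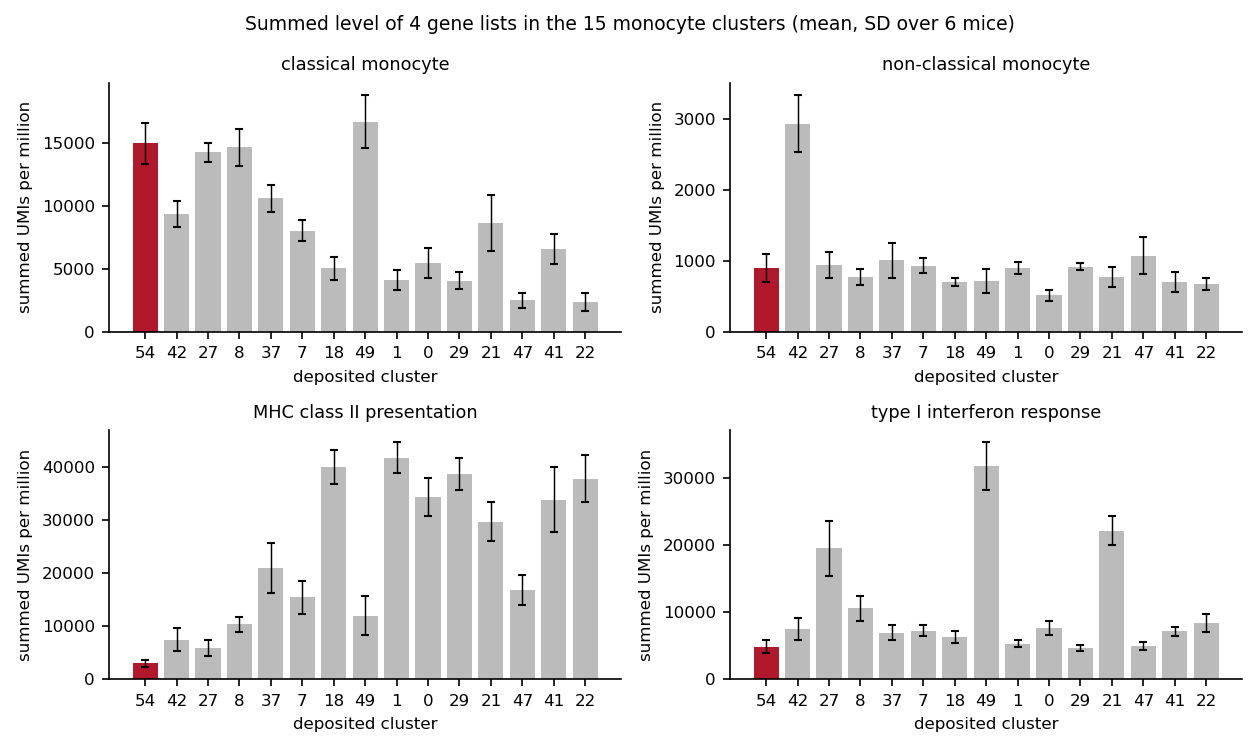
Summed CPM of 4 gene lists in the 15 deposited monocyte clusters, ordered by likeness to cluster 54 (red); bars are means and lines the SD over 6 mice. Cluster 54 is 2nd of 15 for the classical list and lowest for MHC class II.

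The human Fc gamma receptors of these mice did not all go the same way. FCGR3B ran from 73.7 over 206.7 to 538.8 CPM in cluster 54 and from 2643 over 3059 to 3250 CPM in the other monocytes, a difference of -3.66 ± 0.37. FCGR3A differed by -2.95 ± 0.29, with 9 of its 16 UMIs in 1 cell, and the activating receptor FCGR2A by -2.11 ± 0.14. The inhibitory FCGR2B ran from 596.5 over 897.8 to 1110 CPM against 1010 to 1171 CPM; the groups overlapped and the difference was -0.50 ± 0.10. FCGR1A, the high-affinity receptor, ran from 118.6 over 214.3 to 240.4 CPM against 92.3 to 176.0 CPM, with 5 of 6 mice higher (0.47 ± 0.18). FCGR2C and FCGRT had no UMI in cluster 54. In the other monocytes FCGRT had none either, and FCGR2C stood at a mean of 5.34 CPM. FCGR3A and FCGR3B, and likewise the FCGR2 genes, are near-identical copies, so how reads were split between them is uncertain, and barcodes of free RNA held 1787 CPM of FCGR3B. Tnfrsf18, which encodes GITR, the antibodies' target, was at most 14.2 CPM in any mouse of cluster 54, and its ligand Tnfsf18 had no UMI. Tnfsf18 was near 0 in the other monocytes too, at a mean of 0.16 CPM.

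Clusters 42 and 27 resembled cluster 54 most across 3339 genes, with a Pearson r across genes of 0.931 (117 cells) and 0.871 (186 cells); genes are not independent replicates and all clusters came from 1 library. In all 3 clusters class II sums were the lowest of the 15, at 2975 ± 690 CPM in cluster 54, 5858 ± 1525 in cluster 27 and 7424 ± 2135 in cluster 42 (SD, n = 6 mice). MHC class II genes were lower in cluster 54 than in either neighbour, 4 of 7 tested in each comparison.

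Against cluster 42, 38 of 3013 genes (1.26%) were higher and 129 (4.28%) lower in every mouse. Of 11 non-classical monocyte genes 9 were lower in cluster 54, with a median of -1.81 against 0.00 for all genes. Eno3 had no UMI in cluster 54, and Ace (angiotensin-converting enzyme), Treml4, Adgre4 and the lipid receptor Cd36 differed by -3.58, -2.99, -2.56 and -4.16. The list summed to 900 ± 193 CPM in cluster 54 and to 2938 ± 406 CPM in cluster 42, which ranked 1st, while cluster 54 ranked 7th. In the classical list 8 of 12 were higher and none lower, including F13a1 (2.14), Fn1 (1.89) and Ly6a2 (1.73); Mmp8 itself, outside the list, differed by 2.73. Lysosomal and glycolytic genes did not separate the pair: 0 of 14 and 0 of 13 tested met the rule.

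Against cluster 27, 93 of 3727 genes (2.50%) were higher and 282 (7.57%) lower. Here 20 of 27 type I interferon genes were lower, with a median of -1.48 against 0.06 for all genes, and 9 of 13 tested genes induced by interferon gamma, with a median of -1.64. Cxcl9, Ifit2, Rsad2 and Cxcl10 differed by -5.62, -4.77, -4.13 and -3.92; Cxcl9, Ifit2 and Cxcl10 were also lower than in cluster 42, by -2.14, -2.76 and -2.40. The type I list summed to 4823 ± 991 CPM in cluster 54, 14th of 15, and to 19513 ± 4051 CPM in cluster 27. The classical list differed little: 14928 ± 1619 against 14229 ± 736 CPM, with 2 of 12 genes higher, and clusters 49 and 8 reached 16667 ± 2115 and 14622 ± 1479 CPM. No macrophage gene of 7 tested met the rule, and the list summed to 1315 ± 488 against 1645 ± 370 CPM. Stxbp6, Hpgd and Ccdc88c were higher in cluster 54, by 2.32, 2.70 and 2.75.

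**Figure D4:**
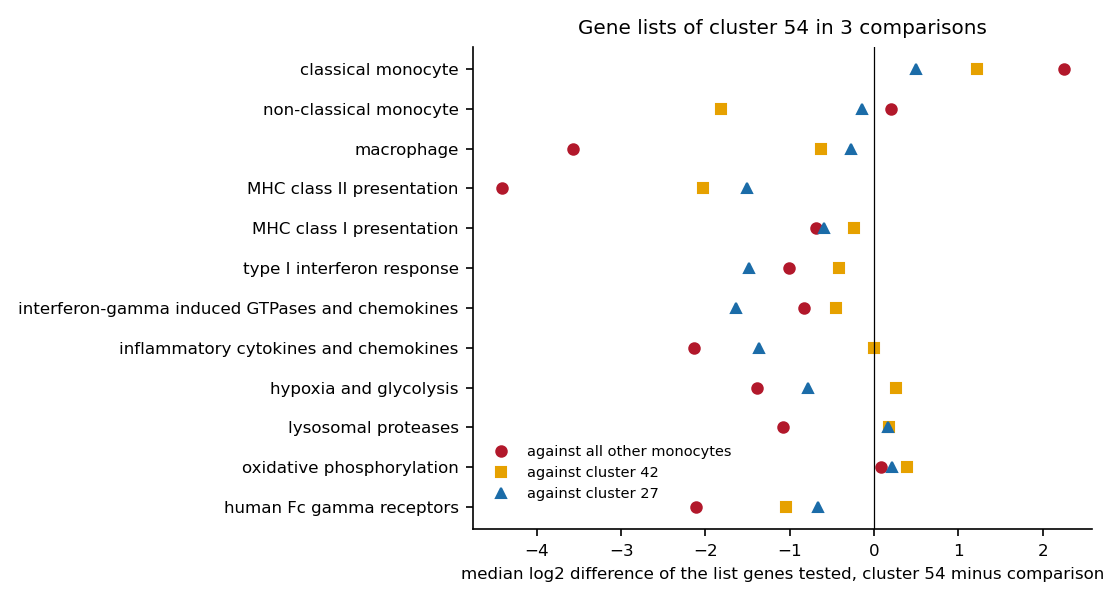
Median log2 difference of the tested genes of 12 lists, cluster 54 minus all other monocytes (circles), cluster 42 (squares) and cluster 27 (triangles). The non-classical list stands at -1.81 against cluster 42 and 0.20 against all others, and MHC class II is low in all 3 comparisons (-4.42, -2.02 and -1.51).

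Markers of T cells and NK cells stayed near 0. The 10 T cell markers together held 0 to 43.1 CPM in cluster 54, 21.1 to 46.8 in the other monocytes and 7274 CPM in CD8 T cells, with 4 of them at no UMI; the 9 NK cell markers held 0 to 43.1 CPM, with 5 at no UMI. Among dendritic cell genes Clec10a and Flt3 had low levels above those of the other monocytes, at means of 27.1 against 5.37 CPM and 15.4 against 1.21 CPM, with overlapping mice, and Mgl2 had no UMI. Summed per cell, their list (cDC2 and moDC) had a lower median in cluster 54, 98.2 CPM, than in the other monocytes, 143 CPM. Wdfy4 of the cDC1 list and Runx2 of the pDC list stood at means of 71.5 and 53.8 CPM in cluster 54. For each of them cluster 54 ranked 10th of the 15 clusters. Several quality measures moved with the cluster. Mitochondrial UMIs made up a median of 1.93% in cluster 54 and 1.10% in the other monocytes, higher in 6 of 6 mice. Hashtag UMIs had a median of 1271 against 3146 per cell, lower in 6 of 6 mice and lowest of the 15 clusters, and the top hashtag held 88.6 against 95.6% of them. Per 1000 RNA UMIs the cells held 123 to 188 hashtag UMIs against 265 to 410. The part of these measures in the differences above was not tested. With cells whose top hashtag held at least 90% of hashtag UMIs, only the Untreated mice kept at least 5 cells, and the counts became 81 higher and 674 lower.

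The share of the monocytes in cluster 54 overlapped between treatments. It was 3.59% (95% exact interval 2.02 to 5.85%) and 2.14% (1.11 to 3.70%) in the Untreated mice and 3.44% (1.94 to 5.61%) and 2.31% (1.06 to 4.34%) in the N297A mice. The GA-aFuc mouse had 2.16% (0.873 to 4.4%) and the GITR/Syn GA-aFuc mouse 2.81% (1.36 to 5.11%), both within the range of the other mice. N297A minus Untreated was 0.012 percentage points (two-sided exact permutation p = 1.0; the smallest p that 2 against 2 mice allow is 0.333). The 2 Fc-enhanced antibodies minus the other mice gave -0.383 percentage points (exact permutation p = 0.533, adjusted over both comparisons 1.0; smallest possible 0.0667). Among 63 table entries of cluster 54 outside this library the shares of monocytes were 1.04% in Untreated, 2.63% in N297A, 1.65% in GA-aFuc and 2.42% in GITR/Syn GA-aFuc, with no mouse named and overlapping intervals.

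Whether the antibodies changed gene expression within cluster 54 was tested in 1 model over the 6 mice, which leaves 2 residual degrees of freedom. Few of the 2421 genes tested passed. By edgeR's quasi-likelihood test with Benjamini-Hochberg adjustment, 1 gene (0.0413%) changed in N297A against Untreated, 7 (0.289%) in GA-aFuc against Untreated, 7 (0.289%) in GITR/Syn GA-aFuc against Untreated, and 14 (0.578%) in the 2 Fc-enhanced antibodies against Untreated and N297A. DESeq2 called 0 in each of the 4 comparisons, with 3, 29, 14 and 32 genes at an unadjusted p under 0.05, and limma-voom called 1, 3, 0 and 5. The p-values of edgeR lean on a spread shared across genes: for 97.6% of genes the fit gave the shared value full weight. The comparisons share mice: the Untreated mice enter all 4, and the last holds the mice of the other 3.

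In the last comparison 2 genes (0.0826%) rose and 12 (0.496%) fell, while the mice of the 2 sides did not overlap for 8.18% of genes upwards and 7.72% downwards. Apoe stood at 1407 and 571 CPM in the Untreated mice, 1409 and 883 in the N297A mice, 369 in the GA-aFuc mouse and 356 in the GITR/Syn GA-aFuc mouse. The last 2 mice were the lowest, with no overlap, and the change was -1.60 ± 0.25 (edgeR adjusted p = 1.3e-06). Of 16 alternatives 15 passed, all but DESeq2. Some of them kept only the GA-aFuc or only the GITR/Syn GA-aFuc mouse on the Fc-enhanced side. In the other monocytes Apoe ran from 4548 to 6653 CPM with no such separation, and the change differed between cluster 54 and the other monocytes by -1.56 ± 0.21 (adjusted p = 8.4e-10). Free RNA held 9871 CPM of Apoe, and its part was not tested. The C1q sum of cluster 54, also abundant in free RNA, was 380 and 259 CPM in the Untreated, 232 and 356 in the N297A, and 256 and 307 CPM in the last 2 mice, which overlap.

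Alcam, the adhesion molecule CD166, read 1458, 1013, 1177 and 593 CPM in the Untreated and N297A mice, then 398 and 528 CPM (-1.24 ± 0.24, adjusted p = 0.00012). Dusp1, a phosphatase that switches off MAP kinases, read 509, 366, 448 and 343 CPM, then 156 and 123 CPM (-1.63 ± 0.34, adjusted p = 0.0010). Both separated the mice without overlap, which was a condition for naming genes by treatment and so adds no support. Their limma-voom adjusted p was 0.0012 and 0.020. Leaving out the GA-aFuc mouse ended the edgeR call of Alcam and leaving out the GITR/Syn GA-aFuc mouse that of Dusp1. The JNK scaffold protein Spag9, the translation factor Eif1, the scavenger receptor Olr1, the fatty acid carrier Fabp5 and Cox7a2l also fell, by 0.75 to 2.90 on the log2 scale. Their adjusted p ran from 0.0068 to 0.041, and each was lost in at least 3 of the fits that left out 1 mouse.

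Several of the genes that fell had most of their UMIs in 1 cell in some mice. For Olr1 this held for 12 of 18 and 9 of 16 UMIs in the Untreated mice and 5 of 6 in the second N297A mouse, and for Fabp5 for 11 of 20 in the second Untreated and 3 of 5 in the second N297A mouse. Cxcl2, a chemokine for neutrophils, read 112, 248, 580 and 448 CPM, then 28 and 74 CPM (-2.71 ± 0.48, adjusted p = 2.7e-05; 0.41 by limma-voom). One cell held all 34 UMIs of the second N297A mouse and another 40 of 70 UMIs of the first, and the rise in N297A against Untreated (1.54 ± 0.34, adjusted p = 0.016) was lost when the cell with most UMIs was left out; limma-voom gave it an adjusted p of 0.0050. In the other monocytes Cxcl2 was highest in the last 2 mice, at 1119 and 1517 CPM. FCGR3B read 216, 539, 390 and 198 CPM, then 128 and 74 CPM (-1.81 ± 0.39, adjusted p = 0.0017 by edgeR and 0.19 by limma-voom). In the second Untreated mouse 1 cell held 42 of 50 of its UMIs, and in the first N297A mouse 1 cell held 36 of 47. The edgeR call of FCGR3B was lost without the second Untreated, the first N297A or the GITR/Syn GA-aFuc mouse. The 2 genes that rose were Il1b, at 561, 313, 158 and 316 CPM, then 611 and 922 CPM (1.21 ± 0.26, adjusted p = 0.0010; 0.00038 by limma-voom), and the metal-binding Mt1, at 207, 323, 240 and 119 CPM, then 469 and 627 CPM (1.25 ± 0.28, adjusted p = 0.0029; 0.0031 by limma-voom). Both were lost without the GITR/Syn GA-aFuc mouse, Il1b also without the first N297A mouse and Mt1 also without the second. Single cells weighed on these genes too. In the GA-aFuc mouse 1 cell held 23 of 43 UMIs of Il1b and 1 cell 20 of 33 of Mt1. In the first Untreated mouse 1 cell held 35 of 65 UMIs of Il1b, and in the second N297A mouse 1 cell held 6 of 9 of Mt1. In the other monocytes Il1b lay between 2245 and 2590 CPM in all 6 mice. Mt1 read 187, 160, 233 and 180 CPM there, then 232 and 316 CPM. For Mt1 the change was not called different between cluster 54 and the other monocytes. Free RNA held 929 CPM of Il1b and 734 CPM of Mt1, and its part was not tested.

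**Figure D5:**
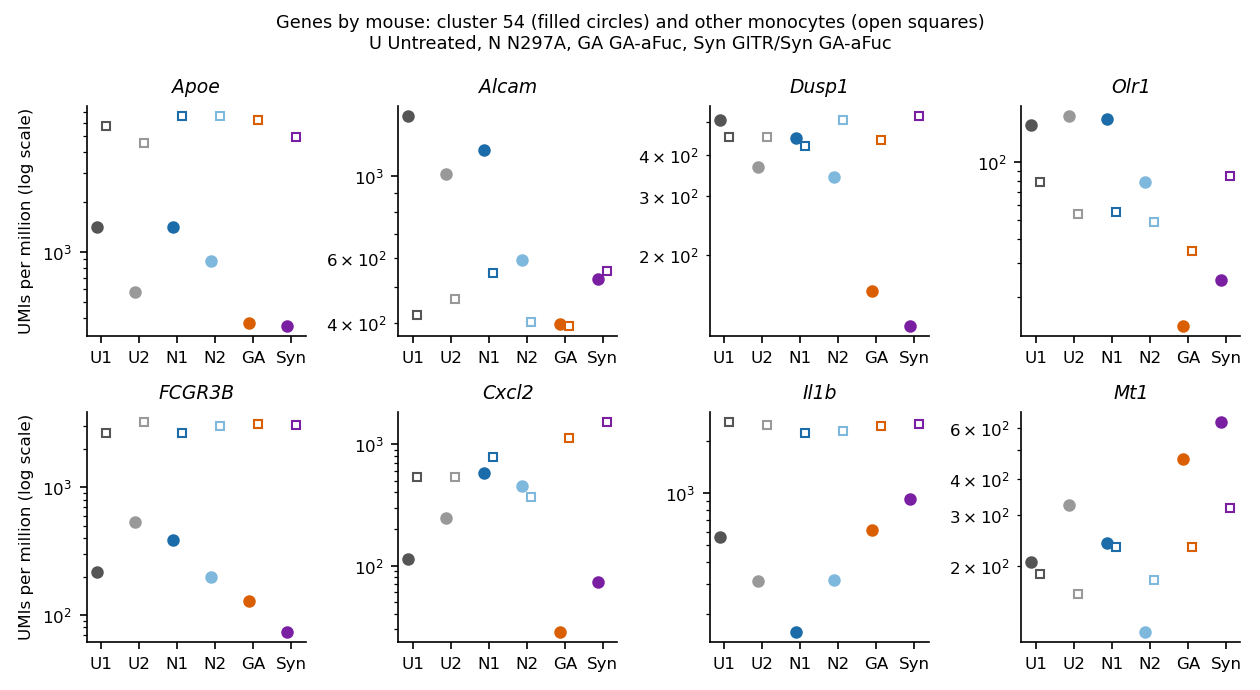
CPM (log scale) of 8 genes in each mouse, in cluster 54 (filled circles) and the other monocytes (open squares). In cluster 54 the 2 mice given an Fc-enhanced antibody are the lowest for Apoe, Alcam, Dusp1, Olr1, FCGR3B and Cxcl2 and the highest for Il1b and Mt1. Such separation was a condition for naming genes by treatment.

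Against Untreated alone each Fc-enhanced antibody is 1 mouse, so these p-values take their spread from the other groups and compare that mouse with the Untreated mice. In the GA-aFuc mouse Vav3, a guanine nucleotide exchange factor, was at 994 CPM against 328 and 259 (1.69 ± 0.35, adjusted p = 0.0011; 0.0015 by limma-voom). The growth factor Nrg1 and Chil3 were also called higher and Alcam, Jun, Apoe and Specc1l lower. The GA-aFuc mouse held 511 CPM of Nrg1 and 2755 of Chil3. The N297A mice read 680 and 356 CPM of Vav3, 356 and 158 of Nrg1, and 2487 and 1397 of Chil3. For Vav3, Nrg1 and Chil3 the change was not called different from that in the other monocytes. By limma-voom the adjusted p was 0.021 for Nrg1, 0.0073 for Alcam, 0.070 for Chil3, 0.13 for Apoe, 0.74 for Jun and 0.71 for Specc1l. Without the first Untreated mouse the calls of Alcam, Jun and Apoe were lost, without the second that of Vav3, and without either those of Nrg1, Chil3 and Specc1l.

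In the GITR/Syn GA-aFuc mouse Pitpnc1 and A330040F15Rik were called higher and Cxcl10, Apoe, FCGR3B, Alcam and Dusp1 lower, and limma-voom called none of the 7. Its adjusted p was 0.11 for Pitpnc1 and Alcam, 0.13 for Apoe, 0.26 for Dusp1, 0.52 for A330040F15Rik and 0.75 for FCGR3B. A330040F15Rik was lost in all 5 fits that left out 1 mouse, Pitpnc1 without either Untreated mouse, Apoe and Alcam without the first, FCGR3B without the second, and Dusp1 without the first Untreated or the second N297A mouse. Cxcl10, a ligand of CXCR3, went from 449 and 431 to 25 CPM (-4.13 ± 0.70, adjusted p = 8.6e-06), but limma-voom gave 0.97. Of its 52 UMIs in the first Untreated mouse 36 came from 1 cell, and 24 of 40 in the second. None of the class II genes tested passed within cluster 54 in any comparison (0 of 7), nor did a gene of the type I interferon list other than Cxcl10 (20 tested). In the classical list only Chil3 passed (12 tested), and only in GA-aFuc against Untreated.

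A treatment change in cluster 54 differed from that in the other monocytes, by edgeR's interaction test, for 1 of 11689 genes (0.00856%) in N297A against Untreated. The counts were 4 (0.0342%) for GA-aFuc, 12 (0.103%) for GITR/Syn GA-aFuc and 14 (0.120%) for the 2 Fc-enhanced antibodies against the rest. Among the 12, H2-Ab1 was the 1 gene with a positive difference (1.93 ± 0.40, adjusted p = 0.0026). In cluster 54 it was at 356 CPM (29 UMIs) in the GITR/Syn GA-aFuc mouse and at 60.4 and 151 CPM (7 and 14 UMIs) in the Untreated mice, a change of 1.75 ± 0.52 that did not pass within the cluster (edgeR adjusted p = 0.15). The first N297A mouse, at 298 CPM, lay near the GITR/Syn GA-aFuc mouse. Above, H2-Ab1 was found in no larger share of thinned cluster 54 cells than of CD8 T cells. No expression of it was read from the cluster, and that limit applies here too. The tests were also run on 1 simulated set per comparison with the same depths. Its counts were drawn independently from the spread fitted in cluster 54, also for the other monocytes. No UMIs were concentrated in single cells and no mouse effect was shared, so how the tests fare with these was not tested. In these sets the test within cluster 54 found 43 to 74% of 4-fold changes and 14 to 35% of 2-fold changes. It made 2, 1, 6 and 6 false calls in the 4 comparisons, beside the 1, 7, 7 and 14 genes called in the data. The interaction test found 13 to 47% of 4-fold and 0 to 11% of 2-fold changes, with 0 to 2 false calls.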

How the data were processed

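The authors deposited raw UMI counts per feature and barcode, made with Cell Ranger 9.0.0 per the file headers on a combined GRCh38 and GRCm39 reference, and a cell table with treatment, cell type and cluster. The sources used here do not say how cells were filtered, clustered or cleared of doublets, and no doublet caller was run. Of 8767 cells with at least 1000 mouse UMIs, 33 carried mainly the hashtag of a treatment other than their own and 18 shared a barcode, and these were dropped; 34 barcodes stand in the table more than once. Nothing says more of the mice than their hashtags, so replicates are hashtags of 1 library.

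Counts were summed per mouse for cluster 54 and the other monocytes and fitted with edgeR 4.0.16 (TMM, filterByExpr, robust quasi-likelihood; limma 3.58.1, DESeq2 1.42.0, R 4.3.3). A gene was called between clusters at a fitted difference of at least 2-fold, in the same direction in every mouse, with at least 50 CPM and 30 UMIs on the higher side. The fit holds the mouse as a block, since both sums come from the same animal. Treatments were tested without a block at an adjusted p under 0.05. Named genes were the 15 largest differences each way, up to 4 of each of 46 gene lists (554 of 557 names matched), the markers, and up to 10 a direction past the treatment threshold whose mice did not overlap. Fabp5 and Cox7a2l, which complete a count, and Eno3, Ace, Treml4 and other genes of the comparisons with clusters 42 and 27 were chosen after their values were seen. Members and lists were chosen with earlier results of these data known. Thinning drew 2000 UMIs per cell. Shares have exact Clopper-Pearson intervals. The fits were tested on simulated counts. RefSeq promoters were matched by symbol. Some genes that met these rules are counted but not reported here by name.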

Additional observations from a re-analysis of the deposited data

Results flagged for a closer look

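For the genes below, the treatment change in cluster 54 passed the test and also differed from the change in the other monocytes by edgeR's interaction test; values are log2 change in cluster 54 minus log2 change in the other monocytes. For the 2 Fc-enhanced antibodies against Untreated and N297A, they were -4.04 for Cxcl2, -3.42 for Fabp5, -1.99 for FCGR3B, -1.78 for Dusp1, -1.56 for Apoe, -1.31 for Alcam and 1.11 for Il1b. For GA-aFuc against Untreated they were -1.83 for Apoe and -1.64 for Alcam. For GITR/Syn GA-aFuc against Untreated they were -4.25 for Cxcl10, -2.46 for FCGR3B, -2.16 for Dusp1, -1.66 for Alcam and -1.47 for Apoe. For Cxcl2 the change in the other monocytes went the opposite way. Cxcl2, Cxcl10, FCGR3B, Fabp5 and Il1b have most of their UMIs in single cells in some mice, as given above. For Dusp1 1 cell held 6 of 11 UMIs in the GA-aFuc mouse. The 3 comparisons share the Untreated mice.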

How the results depend on the processing

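Called differences of the named genes between cluster 54 and the other monocytes kept their direction under every alternative run. Cells whose top hashtag held at least 90% of hashtag UMIs gave 81 genes higher and 674 lower against the other monocytes, and 38 higher against cluster 27; this set keeps only the Untreated mice, so treatments could not be fitted. Against cluster 42 the higher count was 25 with library totals, and without the replicate block 24 higher and 84 lower; the block changed no other count by over 1.5 times. Without a filter 55 genes were higher than in cluster 27. Leaving out 1 mouse at a time gave 153 to 168 genes higher and 427 to 479 lower than in the other monocytes.

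Treatment counts depended on the tool. For N297A against Untreated, edgeR gave 0 without a filter, 3 with mice of at least 10 cells and 0 without the cell with most UMIs of a gene, and DESeq2 gave 0. For GA-aFuc it gave 4 without a filter, with 0 by DESeq2 and 3 by limma-voom. For GITR/Syn GA-aFuc it gave 3 without a filter, with 0 by DESeq2 and 0 by limma-voom. For the 2 Fc-enhanced antibodies against the rest, the counts were 0 by DESeq2 and 5 by limma-voom. The same comparison gave 8 without the top 5% of cells and 7 with mice of at least 10 cells. Neither of these settings kept the GA-aFuc mouse, so both compare the GITR/Syn GA-aFuc mouse alone with the rest. The minimum of 10 cells also left out the second N297A mouse, with 9 cells, so N297A was 1 mouse there. Leaving out 1 mouse at a time gave 1 to 2 for N297A, 3 (without the second Untreated mouse) to 22 (without the first N297A mouse) for GA-aFuc, 2 to 6 for GITR/Syn GA-aFuc, and 5 (without the GITR/Syn GA-aFuc mouse) to 14 for the 2 Fc-enhanced antibodies. Without either Fc-enhanced mouse, that last comparison holds only the other one.

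For the difference of changes, N297A gave 0 with relative log expression factors, 0 with library totals, 2 with at least 30 UMIs, 0 with mice of at least 10 cells and 0 without the top cell of a gene. GA-aFuc gave 2 with relative log expression factors, 8 at 3000 UMIs per cell, and 2 without that top cell. Leaving out 1 mouse at a time gave 0 to 1 for N297A, 1 to 4 for GA-aFuc, 5 to 12 for GITR/Syn GA-aFuc and 2 to 12 for the 2 Fc-enhanced antibodies, the lowest without the GITR/Syn GA-aFuc mouse. The share of cluster 54, N297A minus Untreated, turned to -0.078 percentage points over all annotated cells, -0.0097 at 3000 UMIs and -1.26 with the 90% rule, and without 1 mouse ran from -0.714 to 0.739. The cause of these changes was not tested. Without the top 5% of cells, or with mice of at least 10 cells, GA-aFuc against Untreated could not be fitted. No treatment fit could hold the replicate block, because each mouse had 1 treatment. Cluster 54 held 70409 to 120625 UMIs per mouse, which limits what a treatment test can find.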
